A study of Homo sapiens with 4 samples.

Results

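Chromosome 19 carries 250 protein-coding genes whose symbols begin with ZNF followed by a digit, out of 1410 protein-coding genes of that chromosome in the RefSeq table (GRCh38.p14) and 19821 on chromosomes 1 to 22 and X. The genes were chosen by symbol and position, and each was asked for ETS1 and RUNX1 peaks within 1 kb of either outer end. They were put forward for study because earlier results of the same peak lists had drawn attention to them, so the counts of genes are given as a description, and the sole test is of the libraries of an antibody against those of the other. Of the 250 symbols, 4 hold a hyphen and stand for read-through or divergent transcripts. The comparison groups are the other 1160 protein-coding genes of chromosome 19 and the 267 ZNF genes of other chromosomes.

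The peaks come from CUT&Tag in 6T-CEM, an established human T-cell acute lymphoblastic leukaemia line. In this assay an antibody guides a transposase to the chromatin around a protein, and the cut fragments are sequenced. A group of 2 libraries was made with an antibody against ETS1 and another of 2 with an antibody against RUNX1, from cells of the same line with no treatment or change of genotype in the labels, and IgG served as the control in peak calling. Nothing in the labels says that the libraries of an antibody came from separate cultures, so the spread between them may be technical. The lists run to 6070 and 5611 peaks for ETS1, and to 25356 and 24997 for RUNX1. The number of reads per library is not given in the sources used here. All results are for a single cell line, and peaks are not expression. Of 9 T-lineage genes checked against the label, 8 had RUNX1 and 4 had ETS1 at an end, against 47.2% and 19% of all protein-coding genes. CD5 had neither factor. The 4 B-lineage, 4 myeloid and 4 non-blood genes had 1 RUNX1 region in each list and no ETS1 region. The mean RUNX1 fold over IgG was 20.8 at COL1A1, 11.3 at CD79A and 6.61 at MPO, against a median of 19.1 in the T-lineage list.

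Most ZNF genes of chromosome 19 encode proteins with tandem C2H2 zinc fingers, and many add a KRAB domain. A KRAB domain recruits TRIM28, which brings in a histone methyltransferase and HP1 proteins and silences the bound DNA, often a transposable element. The family grew by tandem duplication, so its genes lie in clusters of related copies with related promoters. ETS1 is an ETS-domain activator of lymphoid cells that binds DNA around a GGAA core, and RUNX1 is a runt-domain factor that T-cell development requires and that binds around TGTGGT. The 2 factors bind many sites in T cells together.

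A region counted for an antibody only where the merged peaks of its 2 libraries held a peak of each. ETS1 lay at an end of 110 of the 250 genes, or 44% (95% Wilson interval 38.0 to 50.2%, which covers counting error over genes only), against 37.8% of the other chromosome 19 genes and 19% of all protein-coding genes. RUNX1 lay at 139 genes, or 55.6% (49.4 to 61.6%), against 62.2% and 47.2%. Both factors were present at 92 genes (36.8%), against 37.5% and 18.7%. Neither factor was present at 93 genes (37.2%), against 37.4% and 52.5%. In these 4 shares the ZNF genes lay within 7 percentage points of their chromosomal neighbours, and for ETS1 both groups of chromosome 19 lay above the share of all genes. ZNF genes of other chromosomes held ETS1 at 62 of 267 (23.2%) and RUNX1 at 148 (55.4%).

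**Figure D1:**
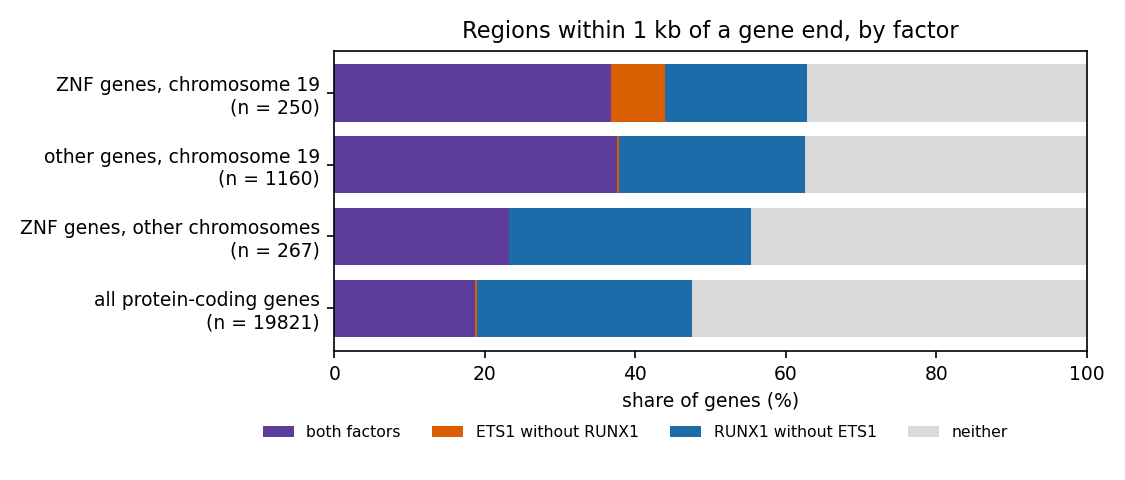
Share of genes (x axis, %) with a region of both factors, of ETS1 without RUNX1, of RUNX1 without ETS1 or of neither within 1 kb of an end, for 4 sets of genes (rows, n in the labels). ETS1 without RUNX1 takes 7.2% of the ZNF genes of chromosome 19 and is hardly visible in the other rows.

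The ZNF genes stood furthest from the other chromosome 19 genes in the class of ETS1 without RUNX1. It held 18 members (7.2%, Wilson interval 4.6 to 11.1%), against 0.345% of the other chromosome 19 genes. It held 0.333% of all protein-coding genes and 0 of the 267 ZNF genes of other chromosomes. RUNX1 without ETS1 held 47 members (18.8%), against 24.7% and 28.5%. Among genes with ETS1, RUNX1 was also present at 83.6% of the members (92 of 110), against 99.1% and 98.2%. Among genes with RUNX1, ETS1 was also present at 66.2% of the members (92 of 139), against 60.2% and 39.6%. Across the genome 66 genes had ETS1 without RUNX1, and the 18 members made up 27.3% of them while making up 1.26% of all genes. Counted as regions, 15 of 98 ETS1 regions at the members overlapped no RUNX1 region (15.3%), compared with 1.16% of 345 regions at other chromosome 19 genes and 2.02% of all 5055 ETS1 regions. The count of 18 fell to 8 when peaks had to reach a −log10 q of 20, and to 9 of 180 members when genes with a neighbour within 2000 bp were left out. ETS1 as a whole fell as well, to 25.6% and 36.1% of the members and to 26.6% and 25.2% of other chromosome 19 genes. The class itself was not counted at other genes under these 2 settings.

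In single libraries, ETS1 peaks lay at the ends of 48% of the members in library 1 and 45.6% in library 2, and RUNX1 peaks at 60.4% and 57.2%. Both RUNX1 libraries were thus above both ETS1 libraries, at 58.8% ± 2.26 (SD, n = 2) and 46.8% ± 1.70 (SD, n = 2). The difference of 12 percentage points had p = 0.333 in an exact two-sided permutation test over the 4 libraries, which is the smallest p this design allows. The same order was seen outside the members, with a wider gap. Other chromosome 19 genes had ETS1 peaks at 40% and 38.7% and RUNX1 peaks at 64.1% and 63.1%. All protein-coding genes had ETS1 at 21.5% and 20.4% and RUNX1 at 49.1% and 48.2%. The order was thus not particular to the members, and the full RUNX1 lists are the longer ones. When the strongest 5611 peaks of each library were compared, the difference at the members turned to −31 points. ETS1 then lay at 45.6% in both libraries and RUNX1 at 14.4% and 14.8%. This setting by construction keeps fewer RUNX1 peaks. Counted as regions, other chromosome 19 genes then also had more ETS1 (37.5%) than RUNX1 (26.2%), against 42.8% and 14.4% of the members. Peaks at the ends of the members made up 1.86% and 1.92% of the full ETS1 lists and 0.607% and 0.584% of the full RUNX1 lists. Chromosome 19 as a whole held 13.9% and 13.8% of the ETS1 peaks and 8.24% and 8.07% of the RUNX1 peaks. Regions at all gene ends numbered 2933 of 5055 for ETS1 and 7800 of 22802 for RUNX1.

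The 18 genes with ETS1 and no RUNX1 region lay on 15 regions, 7 of the genes in the cluster nearest the end of the long arm. The strongest region, at chr19:52397725-52398284 (hg38), covered the start of ZNF528 and lay just past the 3′ end of ZNF880, with fold values over IgG of 11.4 and 11.3 in the ETS1 libraries. These fold values, here and throughout, are the authors' own for each peak at its summit. ZNF880 also had an ETS1 region at its listed start, with folds of 8.24 and 7.79 and no RUNX1 region. No RUNX1 peak of either library lay within 30457 bp of an outer end of ZNF880 or 61448 bp of ZNF528. At ZNF586 (chr19:57769372-57770071) the ETS1 folds were 8.38 and 8.42, and the nearest RUNX1 peaks were 34054 and 22453 bp away. Both genes gave nearly equal ETS1 values in the 2 libraries.

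ZNF836 had folds of 8.43 and 9.02, ZNF606 7.57 and 7.22, and ZNF772 6.87 and 6.25. ZNF226 had 5.69 and 8.78, and ZNF417 had 3.81 and 6.27. ZNF551 had 5.33 and 6.61, ZNF486 5.42 and 4.95, ZNF134 4.42 and 5.39, and ZNF530 5.12 and 4.06. The libraries differed most at ZNF226, ZNF417 and ZNF136, with no gene above the ZNF528 region in either library. ZNF461 and ZNF567, which face away from each other, shared a region with folds of 5.66 and 5.65. ZNF136 had 3.26 and 5.72, and ZNF14 had 4.11 and 4.44. The weakest region was shared by ZNF470 and its divergent transcript ZNF470-DT, with 3.64 and 3.38.

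Of these 18 genes, 11 had no RUNX1 peak at an end in either library, while 4 had such a peak in library 1 alone (ZNF136, ZNF461, ZNF567 and ZNF226) and 3 in library 2 alone (ZNF14, ZNF836 and ZNF606). The nearest RUNX1 region lay between 6575 and 127677 bp from a gene end, with a median of 22677 bp. The pileup at the ETS1 summit ran from 28 to 55 fragments per library, against 21 to 214 at the 92 genes with both factors, and the median fold was 5.65 against 7.02. A RUNX1 signal under the authors' calling threshold would not appear in the lists.

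**Figure D2:**
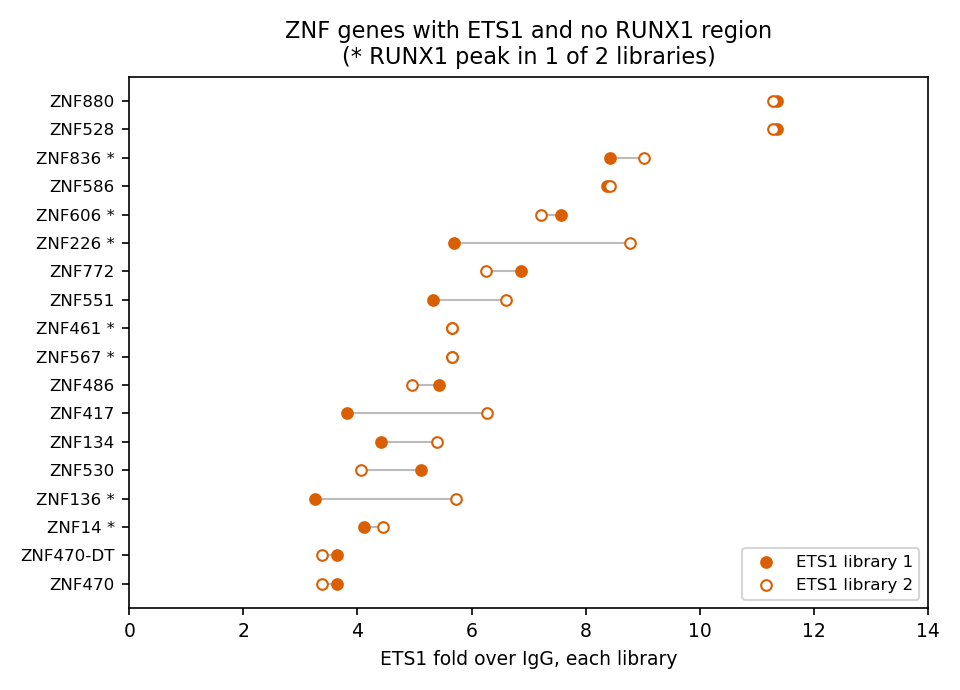
ETS1 fold over IgG (x axis) at the 18 ZNF genes with an ETS1 region and no RUNX1 region, with a filled point for library 1 and an open point for library 2. Genes with the same pair of points share a region, and an asterisk marks the 7 genes with a RUNX1 peak in 1 of the 2 libraries.

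The sequences before the starts of ZNF446, which had the highest fold of both factors, of ZNF586 and ZNF528, with ETS1 and no RUNX1, and of ZNF208, with neither, are shown for comparison. They are RefSeq sequences of GRCh38.p14 in the direction of transcription, ending at the base before the listed start, at chr19:58476102-58476351 (+), chr19:57769426-57769675 (+), chr19:52397758-52397848 (+, cut back to bases outside other genes) and chr19:22010944-22011193 (−). Capitals mark the ETS 7-mer CCGGAAG or the RUNX 6-mer TGTGGT on either strand. The ETS 7-mer lies near the start in ZNF586, ZNF528 and ZNF208 and is absent from the ZNF446 stretch.
ZNF446: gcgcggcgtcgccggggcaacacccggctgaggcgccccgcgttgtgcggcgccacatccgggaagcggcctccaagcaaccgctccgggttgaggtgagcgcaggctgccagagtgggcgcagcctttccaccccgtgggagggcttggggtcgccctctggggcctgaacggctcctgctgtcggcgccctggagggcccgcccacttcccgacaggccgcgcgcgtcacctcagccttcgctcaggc
ZNF586: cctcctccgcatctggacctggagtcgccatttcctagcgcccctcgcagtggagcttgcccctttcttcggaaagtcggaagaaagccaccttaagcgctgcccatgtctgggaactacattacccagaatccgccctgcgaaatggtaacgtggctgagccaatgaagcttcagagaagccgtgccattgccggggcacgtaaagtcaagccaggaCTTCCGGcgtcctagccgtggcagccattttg
ZNF528: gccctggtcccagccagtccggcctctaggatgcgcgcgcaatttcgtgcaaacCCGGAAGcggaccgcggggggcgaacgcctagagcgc
ZNF208: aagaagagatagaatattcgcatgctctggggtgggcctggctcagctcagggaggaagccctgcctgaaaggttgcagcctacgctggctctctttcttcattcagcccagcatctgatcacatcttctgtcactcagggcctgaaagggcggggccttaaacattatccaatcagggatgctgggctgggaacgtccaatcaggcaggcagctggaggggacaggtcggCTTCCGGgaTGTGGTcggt

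The region with the highest fold of both factors covered the start of ZNF446 and lay within 1 kb of the 3′ end of ZNF324, with ETS1 folds of 16.9 and 18 (chr19:58475487-58476699) and RUNX1 folds of 43.0 and 43.8 (chr19:58474475-58478211). ZNF101 had ETS1 15.5 and 14.9 and RUNX1 39.6 and 40.8 (chr19:19667833-19669381). ZNF628 had ETS1 14.7 and 16 and RUNX1 26.5 and 25.7. At these genes both libraries of each antibody lay close together, and RUNX1 stood above ETS1 in fold. The next members by ETS1 had the opposite order: ZNF383 had ETS1 11.5 and 13.1 and RUNX1 8.12 and 8.60, and ZNF701 had ETS1 11.4 and 12.4 and RUNX1 8.53 and 9.82. The ETS1 regions at ZNF528, described above, ZNF865 (11.5 and 11) and ZNF45 (11.9 and 10.6) came next.

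RUNX1 was strongest, after the ZNF446 region, at ZNF649, with RUNX1 folds of 45.5 and 40.0 and ETS1 folds of only 7.32 and 5.22. RUNX1 reached 38.4 and 38.8 at ZNF784, 37.0 and 37.1 at ZNF846, 31.0 and 36.3 at ZNF561, 33.5 and 28.2 at ZNF230, and 31.7 and 28.6 at ZNF627, all with ETS1 as well. The ZNF846 region lay at its outer end, with the RUNX1 summit at −17219 bp from the nearest listed start. At the listed start of ZNF846 the folds were 5.50 and 5.31 for RUNX1 and 4.08 and 3.84 for ETS1. ZNF541, which encodes a germ-cell chromatin protein of meiosis and is no KRAB gene, had RUNX1 without ETS1 at its 3′ end, with folds of 30.2 and 23.9. The lowest RUNX1 folds were at ZNF571 (3.15 and 2.96), ZNF761 (3.11 and 4.03) and ZNF543 (3.71 and 3.57). Among ETS1 regions, ZNF83 (3.38 and 3.67) joined ZNF470 at the low end. The members therefore spanned a mean RUNX1 fold of 3.05 to 43.4 and a mean ETS1 fold of 3.51 to 17.5.

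Over the 98 distinct ETS1 regions at members the median fold was 6.87 (6.86 and 6.70 in libraries 1 and 2). It was 7.43 over the 345 at other chromosome 19 genes and 5.84 over 2933 regions at all gene ends. Over the 130 RUNX1 regions at members the median fold was 8.23 (8.07 and 8.22), against 12.4 over 597 regions at other chromosome 19 genes and 8.40 over 7800 regions at all gene ends. The RUNX1 regions at members were also narrower than at other chromosome 19 genes, with a median width of 901.5 bp against 1290 bp. The ETS1 regions were narrower too, at 652.5 bp against 811 bp. The RUNX1 pileup at the summit, solved from the authors' fold and p-value, had a median of 79.5 fragments against 109.5. The fragments expected from IgG at RUNX1 regions had medians of 8.74 and 7.60. For ETS1 the median pileup was 51.75 against 66, with 7.84 fragments expected from IgG in both groups. Where both factors lay at a gene, the median RUNX1 fold was 9.04 at members and 16.3 at other chromosome 19 genes. The gap between members and other chromosome 19 genes was thus larger for RUNX1 than for ETS1 in these medians, with no test of the difference. RUNX1 regions at ZNF genes of other chromosomes had a median fold of 8.58 and width of 920 bp, near the members, with a pileup of 105.5. Their ETS1 regions had 5.53, 687 bp and 62 fragments. Over all gene ends the median width was 1033 bp for RUNX1 and 708 bp for ETS1.

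At 80 pairs of overlapping ETS1 and RUNX1 regions at members, RUNX1 fold exceeded ETS1 fold by a median of 1.45 times, against 2.07 times at 323 pairs of other chromosome 19 genes. ETS1 had the higher fold in 16 of the 80 pairs (20%), against 6.19% there and 7.64% over all gene ends. The largest excess of ETS1 was at ZNF493 (ETS1 8.80 and 8.52, RUNX1 4.78 and 6.25). ZNF383 came second, followed by ZNF416 (ETS1 10.3 and 10.1, RUNX1 7.0 and 7.51), ZNF471 (5.66 and 4.67, 3.57 and 3.8) and ZNF850 (9.20 and 8.53, 6.36 and 6.52). In each of these 5 genes both ETS1 libraries lay above both RUNX1 libraries. The summits of the 2 factors were a median of 46.75 bp apart at the members and 54 bp at the other genes.

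**Figure D3:**
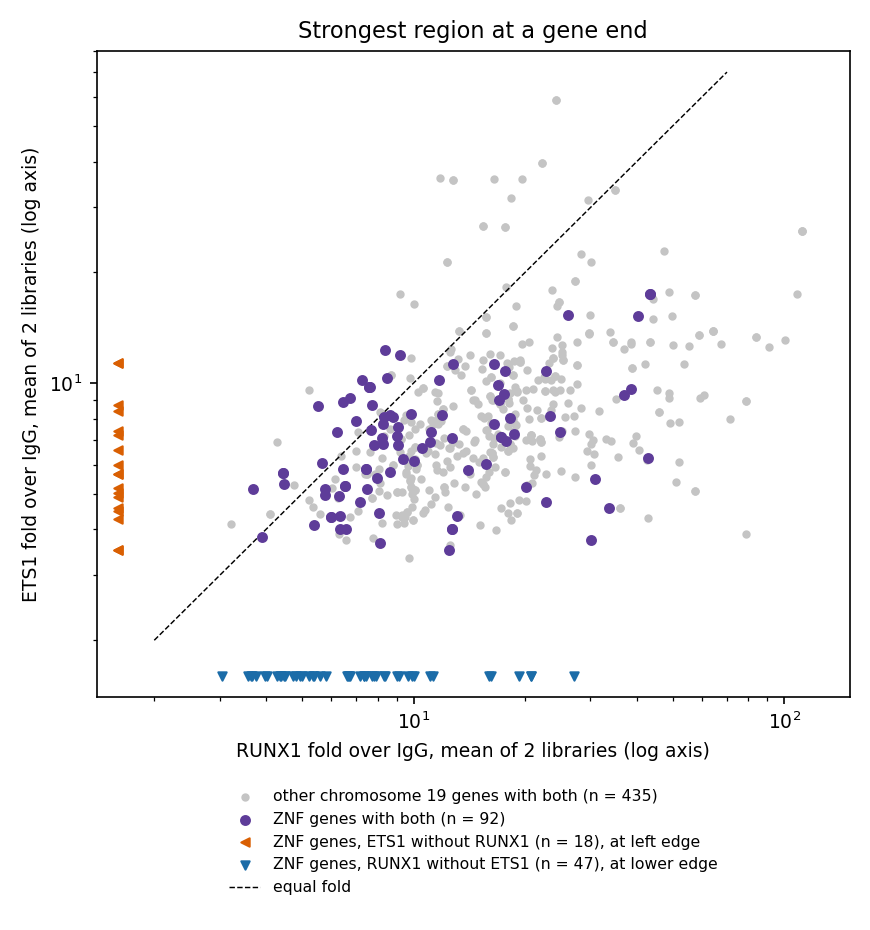
Mean ETS1 fold over IgG (y axis, log scale) against mean RUNX1 fold (x axis, log scale) of the strongest region at each gene, for ZNF genes and other genes of chromosome 19; triangles at the edges are ZNF genes with a region of 1 factor, and the dashed line is equal fold. Most ZNF genes with both factors lie below the line, 18 of them lie above it, and none exceeds a mean RUNX1 fold of 43.4.

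The regions lay at the 5′ ends. Of the 219 members whose strand and start are in the RefSeq promoter table, 97 had ETS1 at the 5′ end (44.3%, against 36% of other chromosome 19 genes and 19.2% of all protein-coding genes) and 118 had RUNX1 there (53.9%, against 59% and 46.6%). At the 3′ end 7 had ETS1 (3.2%, against 8.8% and, over all protein-coding genes, 2.79%) and 10 had RUNX1 (4.57%, against 21.9% and 8.28%). RefSeq lists the start of some members well inside the outer end, and 182 of the 219 start at it. Within 1000 bp of the outermost listed start, ETS1 lay at 110 of the 219 (50.2%, against 35.9% of other chromosome 19 genes and 19.5% of all protein-coding genes) and RUNX1 at 132 (60.3%, against 59.3% and 47.2%). ETS1 without RUNX1 lay there at 19, against 0.518% and 0.379%, and the 17 genes of that class with a listed start all kept it. At 12 members ETS1 lay at the listed start and not at an outer end, and at 1 the reverse held. Counting regions inside the gene as well, 126 of the 250 members had ETS1 (50.4%, against 43.3% and 22.4%) and 161 had RUNX1 (64.4%, against 70.2% and 56%). Summits were set against the nearest listed start, with negative values before it. The median ETS1 summit lay at −0.5 bp at members and at −131.75 bp at other chromosome 19 genes. The ETS1 summit fell within 200 bp of a start at 77 of 97 members (79.4%), compared with 50.6% of 348 other genes. RUNX1 showed the same pattern, with a median of 34.5 bp and 75.4% of 118 members within 200 bp, compared with −85.5 bp and 50.4% of 570 genes.

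**Figure D4:**
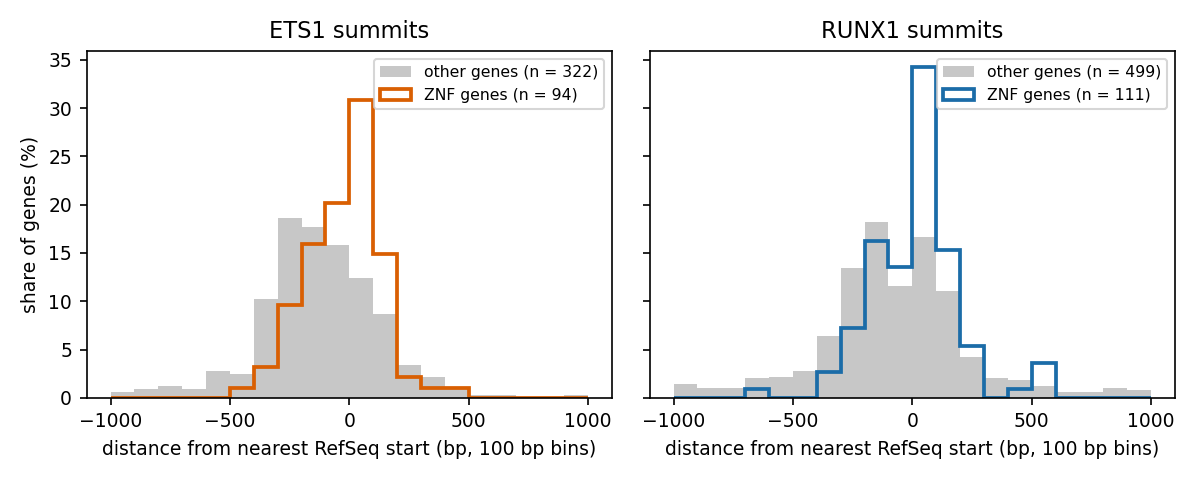
Distribution of the distance from the summit to the nearest RefSeq start (x axis, bp, negative before the start) as a share of genes with a summit within 1000 bp (y axis, %), for ETS1 on the left and RUNX1 on the right. The outline of the ZNF genes peaks in the 100 bp just after the start for both factors, and the filled histogram of other chromosome 19 genes is broader and shifted before the start.

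Some neighbouring members shared a region. The 110 members with ETS1 lay on 98 regions, of which 12 served 2 members each and 5 also lay at a gene outside the family. The 139 members with RUNX1 lay on 130 regions, of which 9 served 2 members each and 7 lay at a gene outside the family. Sharing was not particular to the members. Among other chromosome 19 genes, 439 with ETS1 lay on 345 regions and 722 with RUNX1 on 597. At the 1000 bp limit, the farthest ETS1 regions counted were 774 bp from ZNF766 and 401 bp from ZNF606, and the nearest not counted were 1036 bp from ZNF302 and 1113 bp from ZNF584. For RUNX1, those counted were 863 bp from ZNF302 and 850 bp from ZNF114, and those not counted were 1006 bp from ZNF320 and 1286 bp from ZNF358. Without genes that had a neighbour within 2000 bp, the RUNX1 share of the members minus that of other chromosome 19 genes turned from −6.64 to 2.50 points, and with RUNX1 library 1 alone it was −3.74 points. The ETS1 difference went from 6.16 to 10.9 points under that setting and reversed to −1.04 points at a −log10 q of 20.

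Members with under 500 kb between them formed 10 clusters of at least 5, and 14 members were scattered. The shares with a region differed widely between clusters. RUNX1 was most common in the cluster from ZNF653 to ZNF791 (chr19:11483429-12633834), at 19 of 25 genes (76%), where ETS1 lay at 13 (52%) with a highest mean fold of 7.45 at ZNF700. ETS1 was most common in the cluster from ZNF565 to ZNF573 (chr19:36182060-37779586), at 16 of 26 genes (61.5%), with RUNX1 at 18 and the highest ETS1 fold at ZNF383. Near the centromere, the cluster from ZNF101 to ZNF254 (chr19:19668153-24129968) had ETS1 at 9 of 37 genes (24.3%), RUNX1 at 12 (32.4%) and neither at 23. The single libraries counted 11 and 10 members of that cluster with ETS1 and 15 and 13 with RUNX1, so its low share appeared in all 4 libraries. A missing peak at a near-identical copy is uncertain in every library, and its part in this share was not tested.

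The cluster from ZNF575 to ZNF180 (chr19:43530835-44500522) was also sparse, with ETS1 at 6 of 23 genes, RUNX1 at 8 and neither at 14, although ZNF230 and ZNF45 within it were among the strongest members. The 5 genes from ZNF302 to ZNF792 (chr19:34675979-34964229) had no ETS1 region within 1000 bp of an outer end, and RUNX1 lay at ZNF302, ZNF181 and ZNF792. An ETS1 region with folds of 4.92 and 4.73 lay 1036 bp from the outer end of ZNF302 and overlapped its listed start. The 5 genes from ZNF554 to ZNF77 (chr19:2819868-2944971) had ETS1 at ZNF77 alone and RUNX1 at 3. In the cluster from ZNF414 to ZNF846 (chr19:8509678-9786160), ETS1 lay at 7 and RUNX1 at 10 of 14 genes, and the median RUNX1 fold of 15.1 was the highest of the 10 clusters.

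The largest cluster, from ZNF264 to ZNF446 (chr19:57191500-58489533), held 43 genes with ETS1 at 24 and RUNX1 at 23, and 7 of the 18 genes with ETS1 and no RUNX1. The adjoining cluster from ZNF628 to ZNF835 (chr19:55476617-56671757) had ETS1 at 10 and RUNX1 at 9 of 17 genes. The 41 genes from ZNF175 to ZNF331 (chr19:51571283-53580269) had ETS1 at 17 and RUNX1 at 23. ETS1 thus outnumbered RUNX1 by 1 gene in the 2 clusters nearest the end of the long arm and in no other cluster. In single libraries from ZNF264 to ZNF446 this order did not hold, with ETS1 at 25 and 24 genes and RUNX1 at 24 and 25. From ZNF628 to ZNF835 the counts were 10 and 10 against 9 and 9. The 14 scattered members had ETS1 at 7 and RUNX1 at 11. Some protein-coding genes outside the family lay inside a cluster's span. Of 14 such genes from ZNF414 to ZNF846, 1 had ETS1 and 3 had RUNX1. From ZNF175 to ZNF331 the counts were 3 and 3 of 14, and from ZNF628 to ZNF835 4 and 7 of 25. From ZNF264 to ZNF446 they were 5 and 6 of 13. These shares lay below those of the members there. From ZNF575 to ZNF180, at 5 and 6 of 10, they lay above. The 1 such gene from ZNF302 to ZNF792 had both.

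**Figure D5:**
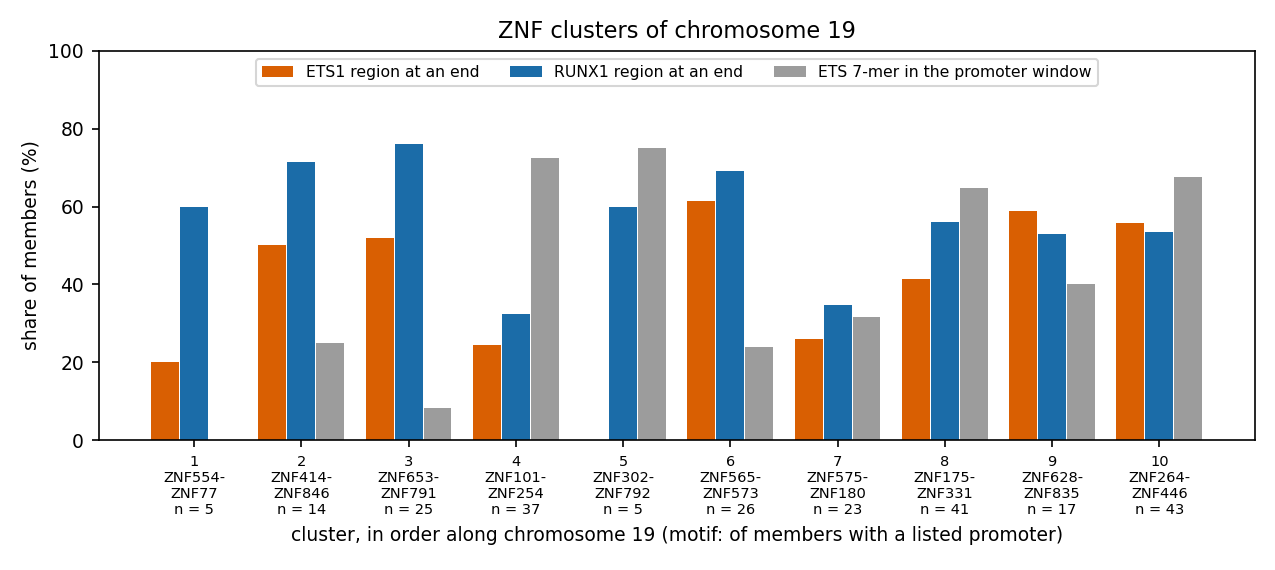
Share of members (y axis, %) with an ETS1 region, a RUNX1 region or the ETS 7-mer CCGGAAG in the promoter window, for the 10 clusters in order along the chromosome (x axis, first and last gene and n). Regions are counted at outer gene ends and the 7-mer at listed starts; the cluster from ZNF101 to ZNF254 has 24.3% for ETS1 and 72.4% for the 7-mer, and the cluster from ZNF653 to ZNF791 has 52% and 8.33%.

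Both motifs were sought on both strands in 300 bases around the start, 250 before and 50 after, at 219 members. The ETS 7-mer CCGGAAG was in 99 of them (45.2%), against 12.8% of other chromosome 19 genes, 14.1% of protein-coding genes and 10.6% of all 27305 genes in the promoter table. ZNF genes of other chromosomes had it in 33.0%. The RUNX 6-mer TGTGGT was in 12.8% of the members and in 13.2% of all genes in the table. For comparison with the 7-mer, a factor was called within 1000 bp of the same start. The 7-mer was present at 47.3% of the 110 members with ETS1 and at 43.1% of the 109 without (47 members), and at other chromosome 19 genes these shares were 21.6% and 7.92%. By the call at outer ends the shares at members were 48.5% and 42.5%. Of the genes with ETS1 and no RUNX1, 12 of 17 with a listed promoter had it (70.6%). ZNF461 and ZNF567 are both counted there for the same match (chr19:36666819-36666848). The cluster from ZNF264 to ZNF446 holds 7 genes of that class, and 67.5% of all its listed promoters had the 7-mer. A match is a spelling in the window and not a bound site.

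The 7-mer and the peaks were spread differently over the clusters. In the cluster from ZNF101 to ZNF254 the 7-mer was in 21 of 29 promoters (72.4%) and ETS1 lay at 9 of these 29 starts (31.0%), whereas from ZNF653 to ZNF791 the 7-mer was in 2 of 24 (8.33%) and ETS1 at 13 starts (54.2%). From ZNF264 to ZNF446 it was in 67.5% of 40 promoters, and from ZNF175 to ZNF331 in 64.7% of 34. Matches at members lay closer to the start, with a median position of −18 against −51 at other chromosome 19 genes.

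The 30-base windows below run in the direction of the 7-mer, shown in capitals, and come from the cluster from ZNF101 to ZNF254 (RefSeq, GRCh38.p14). ZNF430 (chr19:21020622-21020651), ZNF431 (chr19:21142004-21142033), ZNF493 (chr19:21397100-21397129) and ZNF486 (chr19:20167179-20167208), all read on the minus strand, and ZNF43 (chr19:21836189-21836218, plus) were the 5 genes with the 7-mer and ETS1 at the listed start. The ETS1 region of ZNF43 (chr19:21835838-21836227) lay 15838 bp from its outer end, so ZNF43 was not among the genes counted at outer ends. ZNF85 (chr19:20923221-20923250, minus), ZNF208 (chr19:22010945-22010974, plus) and ZNF91 (chr19:23395478-23395507, plus) had no ETS1 at the listed start or an outer end. They are shown because the letters around the 7-mer were alike on both sides of this divide. The 13-base core ATCCCGGAAGCCG occurred 13 times in this cluster.
ZNF430, ETS1 folds 3.8 and 3.85: ccccgccaaacCCGGAAGccgccctgtccg
ZNF431, ETS1 folds 4.62 and 4.27: cccgccacatcCCGGAAGccgtcctgtccg
ZNF493, ETS1 folds 8.80 and 8.52: ccagccacatcCCGGAAGccgtcctcgccg
ZNF486, ETS1 folds 5.42 and 4.95: ccgcgccaaacCCGGAAGccgtcctctttg
ZNF43, ETS1 folds 3.92 and 4.26: cccgccacatcCCGGAAGccgccctgtcct
ZNF85, no ETS1: cccgccacatcCCGGAAGccgccctatccg
ZNF208, no ETS1: ccgaccacatcCCGGAAGccgacctgtccc
ZNF91, no ETS1: ccagccacatcCCGGAAGccgccctgtccg

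In the cluster from ZNF264 to ZNF446 the base after the 7-mer was most often T. The windows of ZNF530 (chr19:57599877-57599906, minus), ZNF551 (chr19:57681969-57681998, minus), ZNF586 (chr19:57769632-57769661, minus), ZNF416 (chr19:57578890-57578919, plus), ZNF419 (chr19:57487721-57487750, minus) and ZNF132 (chr19:58440150-58440179, plus) show genes with ETS1 alone, with both factors and with neither.
ZNF530, ETS1 alone: cagggaggacgCCGGAAGttccgctccgac
ZNF551, ETS1 alone: cgaggaggacgCCGGAAGttccggcccgtc
ZNF586, ETS1 alone: cggctaggacgCCGGAAGtcctggcttgac
ZNF416, both factors: tcggagcggtgCCGGAAGtcccgccttacc
ZNF419, neither: caaacgagacgCCGGAAGtcccgcccattg
ZNF132, neither: caatggcggcgCCGGAAGtcccgcctctca

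This difference in the next base was noticed in the printed windows and then counted. Over all members, CCGGAAGT was in 45 promoters, of which 28 had ETS1 at the start (62.2%), and CCGGAAGC was in 51, of which 23 had it (45.1%). At other chromosome 19 genes the shares were 72.1% of 43 and 68.1% of 47, and over all protein-coding genes 38.3% of 976 and 33.0% of 820. The 21 matches from ZNF101 to ZNF254 were all CCGGAAGC, with ETS1 at 5 starts. The clusters that hold both spellings did not all have the same order. From ZNF264 to ZNF446 ETS1 lay at 15 of 23 with CCGGAAGT and 4 of 4 with CCGGAAGC. From ZNF175 to ZNF331 it lay at 1 of 5 and 7 of 17, and from ZNF302 to ZNF792 at 0 of 1 and 1 of 1. From ZNF628 to ZNF835 it lay at 3 of 3 and 2 of 3, the order seen over all members. Tandem copies share their promoter letters and are not independent. Reads from near-identical copies may not be assigned to a single place, and the mapping filter is not given in the sources used here, so a missing peak at such a copy is uncertain and its part in these shares was not tested.

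By the call at outer ends, members with neither factor had a median length of 28.3 kb, against 22.7 kb at those with both, 21.5 kb with ETS1 without RUNX1 and 19 kb with RUNX1 without ETS1. Their promoter windows had a median of 17 CpG dinucleotides and 56.8% GC, against 23 and 61.7% at those with both. The genes with ETS1 and no RUNX1 had 20 CpG dinucleotides and 57% GC, near the GC content of the genes with neither.

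Members with a known role fell into several classes. ZNF274, which recruits a histone methyltransferase to the 3′ parts of other ZNF genes, had ETS1 folds of 8.99 and 8.40 and RUNX1 folds of 6.88 and 8.59. ZNF93, a repressor of LINE-1 elements, had ETS1 folds of 9.68 and 11 and RUNX1 folds of 9.67 and 7.28. ZNF91, a repressor of SVA elements from the same cluster, had RUNX1 folds of 7.63 and 6.72 and no ETS1 region. ZNF331, an imprinted gene, had neither factor at an outer end, with the nearest RUNX1 region 8843 bp away, and at its outermost listed start it had ETS1 folds of 4.57 and 4.57 and a RUNX1 region. ZNF382 had ETS1 folds of 5.36 and 5.14 and RUNX1 folds of 6.17 and 6.86 on a region shared with ZNF529. The 2 repressors of transposable elements thus differed in ETS1 and shared RUNX1.

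Among 22 genes for proteins that work with KRAB zinc-finger proteins, 13 had ETS1 and 19 had RUNX1 at an end, against 19% and 47.2% of all protein-coding genes, with median folds of 7.69 and 12.2. TRIM28, the corepressor itself, had ETS1 at 6.97 ± 0.337 and RUNX1 at 20.8 ± 0.507 (SD, n = 2). SETDB1, the histone methyltransferase, had RUNX1 at 12.2 ± 0.470 and no ETS1, and its partner ATF7IP had RUNX1 folds of 27.1 and 21.2. RUNX1 was highest at CBX5, an HP1 protein, with 31.1 ± 2.01, and reached 26.1 ± 0.0330 at CBX3, another. ETS1 was highest at HDAC1, a histone deacetylase, with 18.3 ± 0.652, and at DNMT1, the maintenance DNA methyltransferase, with 17.4 ± 0.0837. The HDAC1 and DNMT1 values were close to the ETS1 maximum of the ZNF members. PPHLN1, ATRX and UHRF1 had neither factor.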

How the data were processed

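CUT&Tag peaks of 4 libraries (2 per antibody) were analysed. Per the submitters' processing notes, bcl2fastq 2.17, Bowtie2 and MACS3 3.0.0a6 were used with build hg38. For the Bowtie2 version, the mapping filter and the calling threshold, the sources used here give nothing. The authors called peaks per library against IgG and deposited, for each peak, a fold enrichment (a ratio), −log10 p, −log10 q and a score, of which the score was not used. The lowest −log10 q per list lay between 5.00 and 5.03.

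For each antibody the peaks of libraries 1 and 2 were merged, and a merged region counted where it held a peak of each, giving 5055 ETS1 and 22802 RUNX1 regions. A gene was counted where a region touched 1000 bp around either outer end, and the strongest peak per library gave its fold. Genes, starts and promoter sequences came from RefSeq tables of GRCh38.p14, with genes on scaffolds left out. Of the 250 members, 219 had a promoter entry, and the outermost of several starts was used for motifs and for the factor calls set beside them. Pileup and IgG expectation at a summit were solved from the deposited fold and p-value, for 100% of 55714 values within 0.01 or a relative 5e-05. The scripts were tested on simulated data. Python 3.11.15, pandas 2.3.3, numpy 2.4.6, scipy 1.17.1 and matplotlib 3.10.9 were used.

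The members, lists, cluster rule and motifs were chosen with earlier results of these data known. Members were named by highest and lowest fold, by ETS1 without RUNX1, by the highest fold in a cluster, by distance to the 1000 bp limit and by known role. Planned counts of zinc fingers and KRAB domains were not made, as no protein sequences were used here. The replicate numbers are shared between antibodies, but nothing shows that they pair libraries. Alternatives were other windows, thresholds, equal peak numbers, single libraries, genes without close neighbours, other starts, cluster gaps and motif spellings.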

Additional observations from a re-analysis of the deposited data

How the results depend on the processing

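Depth could not be judged from reads, since only peak lists were used, and with 2 libraries per antibody the exact test cannot reach a smaller p than 0.333. The ETS1 difference from the other chromosome 19 genes, 6.16 points, became 7.997 with a 500 bp window, 2.84 with 5000 bp, 7.12 with the gene body included, 8.94 by summits, 2.97 at a −log10 q of 10, 5.30 with equal numbers of peaks, 8.39 with a peak in either library, 10.9 without genes with a neighbour within 2000 bp, 8.27 at the 5′ end and 13.6 at every listed start, and it reversed to −1.04 at a −log10 q of 20. The RUNX1 difference, −6.64 points, became −10.8 with 5000 bp, −1.17 by summits, −10.0 at a −log10 q of 10, −12.9 at 20, −11.8 with equal numbers of peaks and −2.94 with a peak in either library, and it reversed to 2.50 without close neighbours and to 0.567 at every listed start. The ETS1 share of RUNX1 genes, 5.94 points above, became 7.34 with 500 bp, 3.23 with 5000 bp, 7.72 by summits, 5.15 and 4.98 at a −log10 q of 10 and 20, 1.57 with equal numbers of peaks, 8.23 with either library, 9.13 without close neighbours, 8.47 at the 5′ end and 8.95 at every listed start. The cause of these shifts was not tested.

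With 1 library of an antibody left out, the ETS1 difference ran from 6.89 to 8, the RUNX1 difference from −5.90 to −3.74 and the ETS1 share of RUNX1 genes from 4.04 to 7.51 points above, while 114 to 120 members had ETS1, 143 to 151 RUNX1, 95 to 99 both and 15 to 21 ETS1 without RUNX1. The RUNX1 minus ETS1 difference over libraries ran from 10.4 to 13.6 points, and the median fold from 6.70 to 6.86 for ETS1 and from 8.07 to 8.22 for RUNX1.

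At a −log10 q of 20, 64 members had ETS1 (25.6%, against 26.6% of other chromosome 19 genes), 56 both factors and 8 ETS1 without RUNX1. With equal numbers of peaks, 36 had RUNX1 (14.4%, against 26.2% of other chromosome 19 genes), 31 both and 76 ETS1 without RUNX1. ETS1 then lay at 42.8% of the members and 37.5% of other chromosome 19 genes, above RUNX1 in both groups. This setting by construction keeps fewer RUNX1 peaks, and ETS1 without RUNX1 was not counted at other genes under it. The RUNX1 minus ETS1 difference over libraries reversed to −31. Without close neighbours, 65 of 180 members had ETS1 (36.1%, against 25.2% of other chromosome 19 genes), 56 both and 9 ETS1 without RUNX1. A gap of 250000 bp gave clusters from 24% to 85.7% with RUNX1 and up to 75% with ETS1. The excess of the ETS 7-mer, 32.4 points, became 27.8 at every listed start, 34.3 for CGGAAG and 16.1 for CCGGAAGT. The settings at listed starts, the motif spellings and the calls at the motif's own start were chosen after seeing the data. With the replicate number as a block, the difference over libraries stayed 12 points, from pairs of 12.4 and 11.6, with an exact permutation p of 0.5, the smallest that 2 pairs allow. The labels do not say that the numbers pair libraries.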
